A study of Mus musculus with 4 samples.

Results

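The sites described here lie around the genes of the AP-1 transcription factors in HAT1 WT and KO immortalized mouse embryonic fibroblasts (imMEFs). Members were all sites of the ATAC-Seq table that overlapped the body of Fos, Fosb, Fosl1, Fosl2, Jun, Junb, Jund, Atf3, Batf3 or Maff, or lay within 50 kb of the gene start, with genes as annotated by GENCODE on mm10. There were 129 such sites of 82325 in all, and none was shared between these genes. ATAC-Seq measures open chromatin, because the Tn5 transposase inserts adapters where DNA is not covered by nucleosomes. Of the 4 libraries, 2 came from HAT1+/+ lines (WT) and 2 from HAT1-/- lines (KO), all on a C57bl6 background. HAT1 acetylates newly made histone H4, and the KO lines came from embryos without it. All lines, WT included, were derived from embryos and carry the SV40 T antigen, and each was a separate line, so a line difference and a genotype difference cannot be told apart beyond the spread of 2 lines per genotype. Replicate numbers are names only.

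AP-1 is a dimer of basic leucine zipper proteins. Fos proteins (Fos, Fosb, Fosl1, Fosl2) do not pair with themselves and bind DNA mainly together with a Jun protein (Jun, Junb, Jund), whereas Jun proteins can also pair with each other. Atf3 and Batf3 can pair with Jun proteins, and small Maf proteins such as Maff can pair with Fos proteins or with each other. In fibroblasts Fos, Fosb, Junb and Atf3 are immediate-early genes that serum and stress switch on within minutes, and AP-1 sites are among the most frequent motifs of fibroblast enhancers. Several elements are known to drive these genes: the CArG box bound by serum response factor, the cyclic AMP response element (CRE, TGACGTCA), and the AP-1 site itself (TGACTCA, which reads TGAGTCA on the other strand), through which the family can act on its own genes.

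The sequences below are shown because they place these elements inside open sites around the AP-1 genes. They were chosen after the values were seen, were read from the RefSeq genome of the mm10 build (GRCm38.p6), and are written 5′ to 3′ on the strand of the gene with the element in capitals. Coordinates are those of the whole stretch printed. The stretch with the CArG box of Fos, in the site over the gene start, was chr12:85473554-85473617 on the plus strand, and that with a further box 12.2 kb downstream was chr12:85486087-85486150. The stretch with the CArG box of Fosb, also in the site over the gene start, was chr7:19310281-19310344 on the minus strand, and that of Junb was chr8:84980132-84980195 on the minus strand.
Fos start: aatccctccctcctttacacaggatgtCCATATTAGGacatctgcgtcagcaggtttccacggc
Fos downstream: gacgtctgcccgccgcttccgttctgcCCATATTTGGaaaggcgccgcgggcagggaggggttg
Fosb start: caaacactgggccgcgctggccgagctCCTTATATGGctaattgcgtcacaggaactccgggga
Junb upstream: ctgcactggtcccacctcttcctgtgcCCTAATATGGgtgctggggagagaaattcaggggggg

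The site over the Jund start held a CRE, shown within chr8:70698708-70698769 on the plus strand. The site over the Jun start held no exact match to either AP-1 or CRE, but it held the related letters TGACATCA, shown within chr4:95052233-95052294 on the minus strand. Exact AP-1 sites lay upstream of Fosb (within chr7:19316754-19316814) and of Junb (within chr8:84985316-84985376), both on the minus strand. Others lay inside Fosl1 (within chr19:5448828-5448888, plus strand) and Atf3 (within chr1:191216278-191216338, minus strand).
Jund start: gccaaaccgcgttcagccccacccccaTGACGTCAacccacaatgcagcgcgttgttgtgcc
Jun start: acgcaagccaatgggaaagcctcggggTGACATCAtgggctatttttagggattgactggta
Fosb upstream: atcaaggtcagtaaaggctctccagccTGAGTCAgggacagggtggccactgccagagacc
Junb far upstream: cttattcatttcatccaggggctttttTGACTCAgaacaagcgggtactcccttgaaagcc
Fosl1 inside: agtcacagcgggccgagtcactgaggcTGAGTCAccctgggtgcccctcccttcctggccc
Atf3 inside: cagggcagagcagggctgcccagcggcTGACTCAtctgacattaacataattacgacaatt

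Values are normalized counts, the authors' read counts per site divided by a factor per library and rounded. Their totals were 8008069 and 8150872 in the WT libraries and 8427919 and 8516263 in the KO libraries. The reads behind them, estimated from the steps between low values, were 9420000 and 11400000 in WT and 7830000 and 5670000 in KO (rounded), so counting error was larger in KO. Across all sites the KO libraries were the least alike (Spearman rho 0.835), below the WT pair (0.877), and WT replicate 1 was most like KO replicate 1 (0.891). The site at the Hat1 start had 390 and 384 in WT and 438 and 368 in KO, so open chromatin at the start of the deleted gene gave no check of the genotype. Sites lay within 1 kb of the start of 9 of 10 fibroblast markers (Pdgfra had none), 3 of 4 endothelial, 0 of 4 blood, 3 of 4 epithelial, 0 of 3 pluripotency and 1 of 3 neural markers. The sites of the fibroblast markers summed to 2638 to 3174 per library, those of the endothelial markers to 203 to 312, of the epithelial markers to 112 to 196 and of the neural marker to 166 to 181. These sums are over unlike numbers of sites. The median level per site was 242.75 for fibroblast, 73.5 for endothelial and 39 for epithelial markers, and 171.5 at the 1 neural site.

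The first question was whether sites around AP-1 genes differed between KO and WT. None of the 129 sites was called at an unadjusted p under 0.01 with an at least 2-fold change (limma on log2(value + 1)), where 0.373% of all sites were called, 0.302% lower and 0.0705% higher in KO. After Benjamini-Hochberg adjustment no site of the whole table passed 0.05, and limma's adjusted p was 1 at every site of the AP-1 genes and of the gene lists below, so each fold change that follows is given with its standard error (SE, n = 2 per group) and did not pass an adjusted test. At an unadjusted p under 0.05, where 3.13% of all sites passed, 6 of the 129 sites passed (4.65%). All 6 were higher in KO (1.54% of all sites passed in that direction and 1.59% in the other), and they lay at the starts of Jund, Jun and Fosl2, and far from the starts of Fosl1 (a pair of sites) and Junb. Under quantile normalization the direction turned at Jun and Fosl2 and 1 of the 6 sites still passed. Of all 82325 sites 873 then passed higher in KO and 1308 lower, beside 1266 and 1313 without that normalization.

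Small differences, in which fewer cells with an open site and a less open site per cell cannot be told apart, were more frequent. Both KO libraries were above both WT libraries at 37 of the 129 sites (28.7%), against 14.6% of all sites, and both were below at 3 (2.33%), against 14.3% of all sites. The log2 fold change was above 0 at 89 sites (69.0%), against 50.7% of all sites. The median over the AP-1 gene sites was 0.18, against 0.0062 over all sites, and single sites ranged from -1.06 to 1.34. The 642 sites that lay between 50 and 500 kb from the same gene starts had a median of 0.12, with both KO libraries above at 22.9% and below at 5.76%, and their log2 fold change was above 0 at 69.6%, a share as high as that of the AP-1 gene sites, so they too were shifted from the values of all sites. Under quantile normalization the median of the AP-1 gene sites was 0.09, with both KO libraries above at 18.6% (13.1% of all sites) and below at 6.20% (14.5% of all sites).

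**Figure D1:**
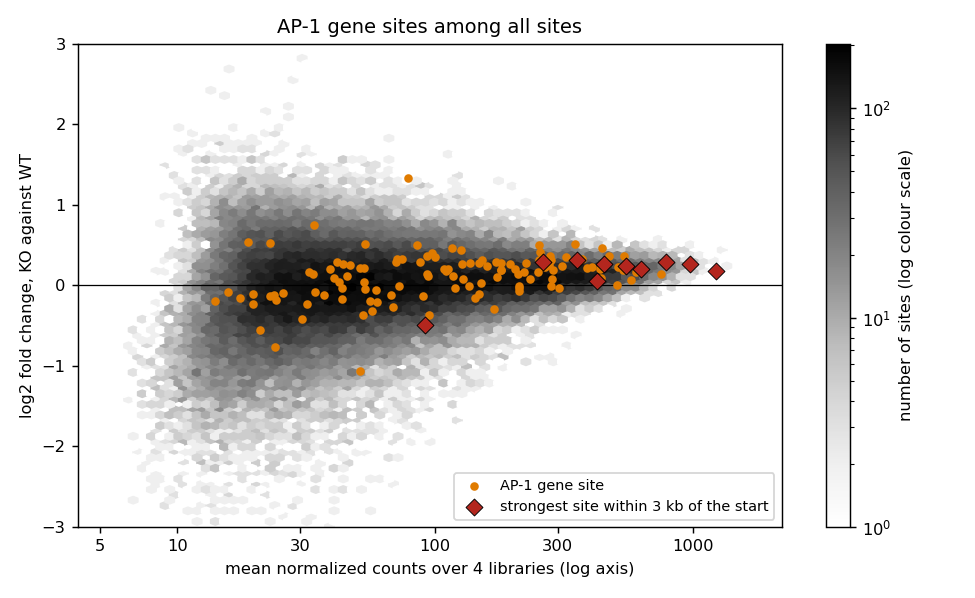
Log2 fold change, KO against WT, of every site (grey hexagons, log colour scale) against its mean normalized count over the 4 libraries on a log axis, with the 129 AP-1 gene sites as orange dots and the strongest site within 3 kb of each gene start as red diamonds. Values beyond 3 log2 units are not drawn. The AP-1 gene sites ran from -1.06 to 1.34 with a median of 0.18 (0.09 under quantile normalization), and 9 of 10 diamonds lay above 0, of which those of Fosb, Fosl2 and Jun fell below 0 under quantile normalization and that of Fosb also with equal library totals.

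The start of each gene was represented by its strongest site within 3 kb. Among the Fos genes, Fosl2, whose product is also called Fra-2, had the strongest site, also per kb, at chr5:32135056-32136245 over its start. It had 872 and 903 normalized counts in WT and 962 and 1179 in KO, so the groups did not overlap, with a log2 fold change of 0.26 ± 0.11 that became -0.01 under quantile normalization. The site over the Fos start, chr12:85473443-85474331, which holds the CArG box shown above, had 367 and 452 in WT and 554 and 433 in KO. These groups overlapped, since KO replicate 2 lay below WT replicate 2 (0.27 ± 0.17). A second Fos site at -1.34 kb had 155 and 222 in WT and 283 and 161 in KO, with KO replicate 1 alone above the WT libraries (0.20, and -0.20 without that library).

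Fosl1 encodes Fra-1, a Fos protein that appears later than Fos after growth stimulation. Its strongest site near the start, chr19:5444749-5445422 at -2.13 kb, had 305 and 320 in WT and 480 and 317 in KO (0.32 ± 0.22), and here too KO replicate 1 alone stood out. The site over the Fosl1 start itself had 257 and 231 in WT and 354 and 278 in KO, without overlap (0.36 ± 0.19). At Fosb, the strongest site, chr7:19307809-19308944 at 1.11 kb inside the gene, had 392 and 437 in WT and 374 and 495 in KO. The KO libraries enclosed the WT libraries, and the log2 fold change of 0.06 ± 0.17 became -0.08 under quantile normalization and -0.01 with equal library totals. The site over the Fosb start with its CArG box had 164 and 192 in WT and 210 and 217 in KO, without overlap (0.27 ± 0.20).

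Among the Jun genes, the site over the Jun start, chr4:95051586-95053525, had the highest normalized counts of all 129 sites, though not per kb. It had 1101 and 1210 in WT and 1275 and 1338 in KO, without overlap (0.18 ± 0.07), but the log2 fold change became -0.12 under quantile normalization. Jund is the Jun gene that resting cells express most steadily. The site over its start, chr8:70698355-70699563, which holds the CRE, had 732 and 686 in WT and 845 and 892 in KO, without overlap (0.29 ± 0.08). Quantile normalization lowered this difference to 0.06. Junb, a Jun protein that restrains Jun in several settings, had its strongest site at -0.846 kb (chr8:84979564-84980290) around the CArG box, with 483 and 531 in WT and 660 and 541 in KO, without overlap (0.24 ± 0.13). The site over the Junb start had 404 and 446 in WT and 419 and 489 in KO, which overlapped (0.09, and -0.05 under quantile normalization).

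Of the partners, Maff, a small Maf protein without an activation domain, had 579 and 587 in WT and 727 and 620 in KO at 0.527 kb (chr15:79347148-79348599), without overlap (0.20 ± 0.11). Atf3, a stress-induced repressor and partner of Jun, had 218 and 254 in WT and 309 and 268 in KO at 1.20 kb (chr1:191215961-191216840), without overlap (0.29 ± 0.18). Batf3, known for its part in dendritic cells, went the other way. Its site at 0.347 kb (chr1:191098194-191098854) had 110 and 104 in WT and 73 and 78 in KO, with both KO libraries below (-0.50 ± 0.27). A smaller Batf3 site at -0.172 kb had 49 and 45 in WT and 51 and 59 in KO.

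In all, both KO libraries were above both WT libraries at 6 of the 10 start sites and below at 1, and 3 passed an unadjusted p under 0.05 (Jund, Jun and Fosl2). Among the strongest sites within 3 kb of every protein-coding gene start, both KO libraries were above at 21.4%, and at 37.3% of those with a mean above 255.5 normalized counts, a level that all AP-1 start sites but that of Batf3 passed. Under quantile normalization both KO libraries were above at 0 of the 10 start sites and below at 2. The log2 fold changes were then 0.13 at Fos, 0.21 at Fosl1, 0.07 at Junb, 0.20 at Atf3, 0.02 at Maff and -0.53 at Batf3, beside those given above for the other genes. With a library left out they ran from 0.09 to 0.44 at Fos, 0.02 to 0.62 at Fosl1, 0.12 to 0.41 at Fosl2, 0.11 to 0.25 at Jun, 0.10 to 0.38 at Junb and 0.25 to 0.34 at Jund. At Atf3 they ran from 0.18 to 0.40, at Maff from 0.09 to 0.32 and at Batf3 from -0.54 to -0.45. The lowest values at Fos, Fosl1, Junb and Maff came without KO replicate 1.

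Per kb of site length and over the 4 libraries, the level was highest at Fosl2 with a mean of 823 ± 116 normalized counts per kb (SD, n = 4), followed by Junb (762), Jund (652), Jun (635), Fosl1 (527), Fos (508), Maff (433), Fosb (374), Atf3 (298) and Batf3 (138 ± 27.9). The ranges of neighbours in this order overlapped, except that every library had a higher level at Atf3 (248 to 351) than at Batf3 (110 to 166). Fosl2 lay at percentile 99.8 of all promoter sites and Batf3 at 37.0, so Batf3 was the AP-1 gene with the lowest level per kb at its start. These percentiles set the strongest site of a gene start against all promoter sites, which were not picked for strength, and so are not like for like.

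**Figure D2:**
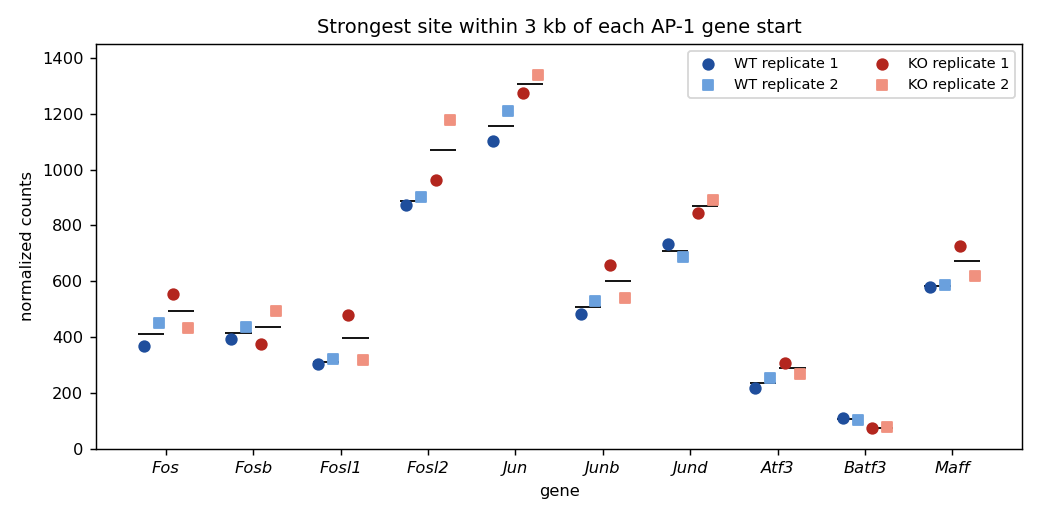
Normalized counts in each library at the strongest site within 3 kb of each AP-1 gene start, with WT in blue, KO in red and a black line at the mean of each group of 2 libraries. Both KO libraries lay above both WT libraries at Fosl2, Jun, Junb, Jund, Atf3 and Maff and below them at Batf3, and the means of Jun, Fosl2 and Fosb changed order under quantile normalization (Fosb also with equal library totals).

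The sites farther out were next. For 59 of the 129 sites the nearest protein-coding start was that of the AP-1 gene itself, while 70 were nearer to another gene, and both sets had a median log2 fold change of 0.18. All 10 sites of Fos and all 7 of Fosl2 were nearest to their own gene, against 3 of 19 for Fosl1, 3 of 19 for Junb and 1 of 11 for Jund, which lie in gene-dense regions. The sites farther than 3 kb with the lowest p were at other genes. The site 42.7 kb downstream of the Fosl1 start, chr19:5490248-5490904, covers the start of Cfl1, which encodes the actin-severing protein cofilin. It had 389 and 355 in WT and 536 and 495 in KO, without overlap (0.47 ± 0.12), and was named after its values were seen. The site at 40.3 kb, over the start of Mus81, a DNA repair nuclease, had 479 and 464 in WT and 657 and 558 in KO (0.36 ± 0.12). With the median of each chromosome removed in each library, the log2 fold changes at these Cfl1 and Mus81 sites were 0.27 and 0.16. The Junb site at -46.6 kb, beside the start of Asna1, had 223 and 199 in WT and 285 and 311 in KO (0.50 ± 0.17, and 0.46 with chromosome medians removed).

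Among the sites nearest to their own gene, the strongest Fos site beyond 3 kb lay at 11.8 kb (chr12:85485708-85486421) with the CArG box shown above. It had 322 and 390 in WT and 518 and 328 in KO, so KO replicate 1 alone was high, and the log2 fold change of 0.22 ± 0.24 became -0.11 without that library. The strongest Jun site beyond 3 kb, at -46.0 kb, had 169 and 292 in WT and 274 and 280 in KO, where WT replicate 1 alone was low (0.32 ± 0.28, -0.08 without it). The strongest Atf3 site, chr1:191182373-191183819, lay 34.2 kb inside the gene over the starts of shorter Atf3 transcripts. It had 796 and 637 in WT and 719 and 854 in KO, which overlapped (0.14 ± 0.14), and the sign turned under quantile normalization (-0.08). The strongest distant Fosl2 site, at -45.9 kb, had 201 and 172 in WT and 181 and 126 in KO (-0.30 ± 0.26). The AP-1 site shown upstream of Fosb lies in a site with 404 and 405 in WT and 494 and 439 in KO, without overlap (0.20 ± 0.12). The one upstream of Junb lies in a site with 4 AP-1 matches and 275 and 296 in WT and 379 and 298 in KO, whose groups were 2 normalized counts apart.

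The strongest distant sites of the other genes were at the starts of neighbours. They were those of Cd3eap at -49.4 kb from Fosb (540 and 594 in WT, 552 and 728 in KO), Lsm4 at -25.0 kb from Jund (517 and 482 in WT, 479 and 677 in KO), Hook2 at -11.2 kb from Junb (322 and 336 in WT, 443 and 388 in KO), Tatdn3 at -34.3 kb from Batf3 (255 and 219 in WT, 263 and 268 in KO) and Pla2g6 at -18.0 kb from Maff (391 and 359 in WT, 439 and 438 in KO). The groups overlapped at Cd3eap and Lsm4, where KO replicate 2 alone was high, and did not at Hook2, Tatdn3 and Pla2g6.

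The most extreme differences lay at sites whose libraries disagreed within a genotype. The highest was at -32.6 kb from Fosb, with 75 and 19 in WT and 161 and 59 in KO (1.34 ± 0.74), and the lowest at -39.3 kb from Fosb, with 99 and 41 in WT and 43 and 21 in KO (-1.06 ± 0.56). At both the groups overlapped. Among sites at or above the median signal of all sites (52), to which the highest belongs, the next beside the Junb site at -46.6 kb were at 7.74 kb from Fosb (216 and 349 in WT, 552 and 281 in KO), at 40.2 kb from Fosb (45 and 42 in WT, 52 and 75 in KO) and at 18.4 kb from Junb (51 and 89 in WT, 129 and 71 in KO), of which the one at 40.2 kb did not overlap. After the Batf3 site at 0.347 kb, the lowest were at -21.8 kb from Batf3 (132 and 83 in WT, 94 and 69 in KO), 45.2 kb from Jund (72 and 47 in WT, 37 and 54 in KO), 25.5 kb from Junb (76 and 51 in WT, 59 and 42 in KO) and -45.9 kb from Fosl2, each with overlapping groups.

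**Figure D3:**
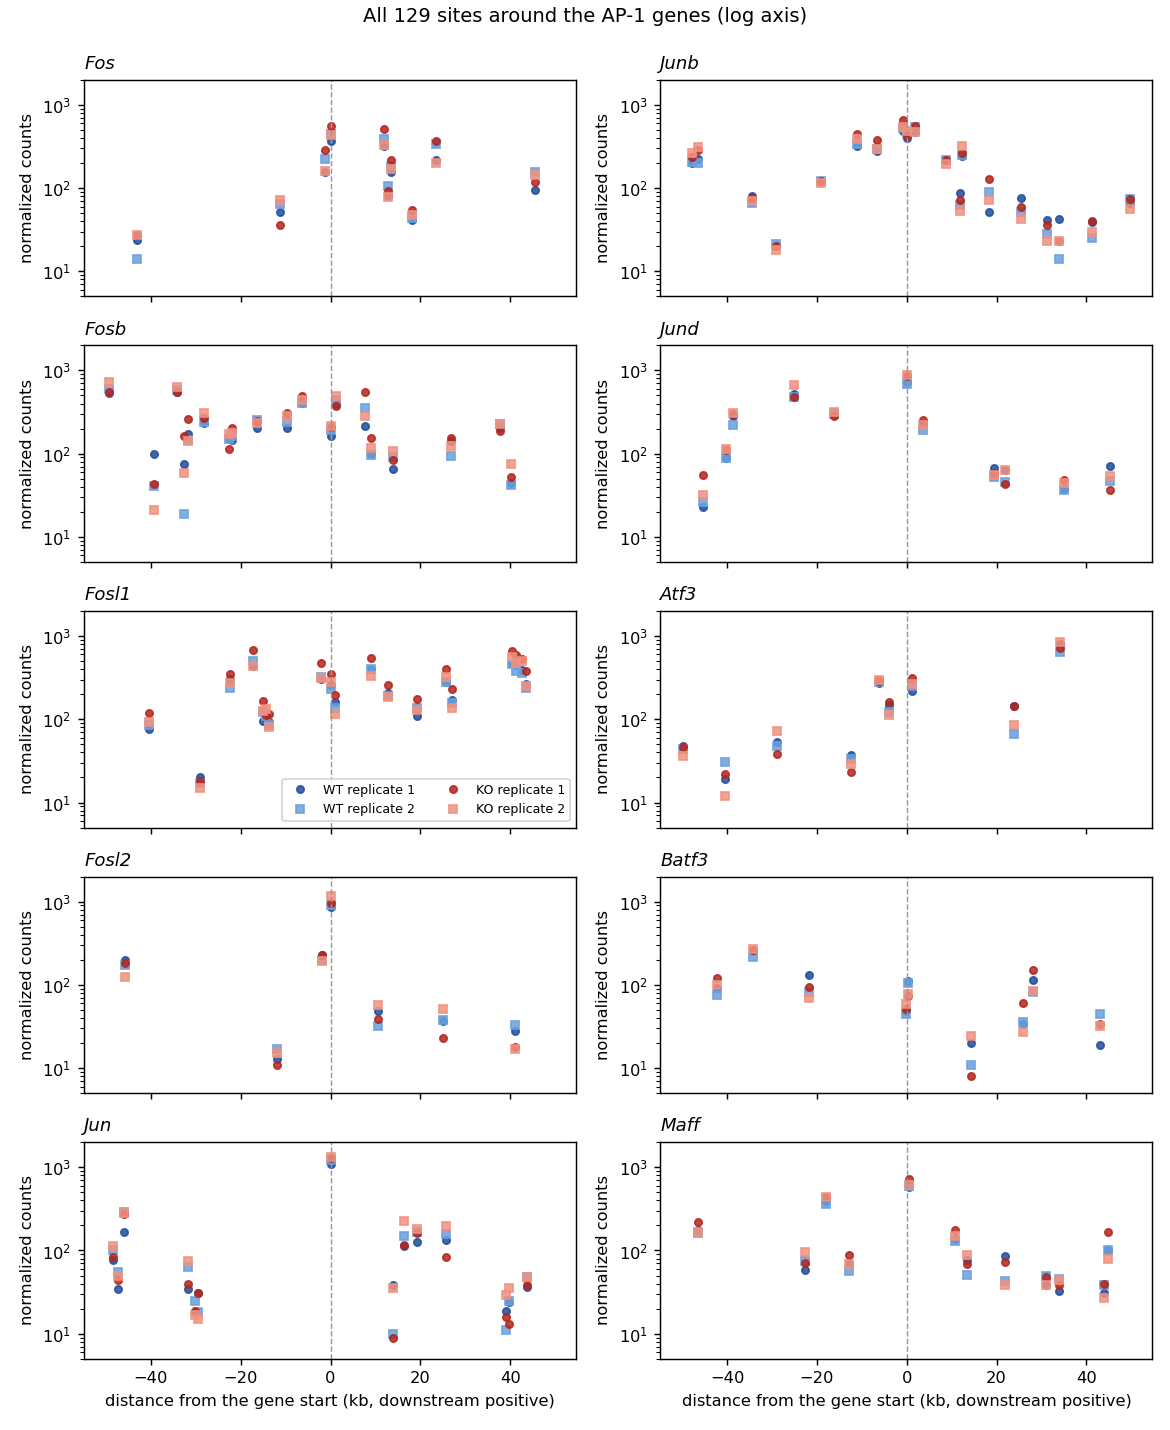
Normalized counts of all 129 sites in each library (log axis) against distance from the gene start in kb, downstream positive, with WT in blue, KO in red and a dashed line at the start. The tallest site lay over the start for Fos, Fosl2, Jun and Jund, within 3 kb of it for Junb and Maff, and farther out for Fosb, Fosl1, Atf3 and Batf3.

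Summed over its sites, each gene had 1 value per library, which avoids counting sites of a gene as replicates. With 2 libraries against 2 an exact permutation test cannot give a p below 0.333, so none is given. Both KO sums were above both WT sums for 7 of the 10 genes and below for 0. By the same rule for every protein-coding gene with a site, both KO sums were above for 24.8% of 18825 genes and below for 10.6%, and for 35.7% and 3.22% of the 9403 genes with sums at least as high as the lowest AP-1 gene. The KO library totals were both above both WT totals, and with equal library totals both KO sums were above for 2 of the 10 AP-1 genes and for 15.5% of those 9403 genes. The largest log2 difference of the sums was at Fosl1 (0.28), with 4605 and 4452 in WT and 6351 and 4750 in KO. It rested on KO replicate 1, without which it was 0.0691, and with chromosome medians removed it was 0.0749, below Jun (0.20) and Fosb (0.20). Fosb had 4100 and 4364 in WT and 4978 and 4827 in KO (0.21), the clearest gap against the spread of either group. Only 7 of its 19 sites were nearest to the Fosb start, so most of the summed sites lay nearer to other genes. Maff had 1774 and 1698 in WT and 2155 and 1855 in KO (0.20), and Jund had 2436 and 2173 in WT and 2510 and 2772 in KO (0.20).

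Junb (3463 and 3573 in WT, 4100 and 3769 in KO), Fosl2 (1426 and 1394 in WT, 1463 and 1640 in KO) and Atf3 (1737 and 1515 in WT, 1752 and 1763 in KO) were the other genes without overlap, at log2 differences of 0.16, 0.14 and 0.12. At Atf3 the gap between the groups was far smaller than the range of the WT libraries. Groups overlapped at Fos (1510 and 1974 in WT, 2266 and 1659 in KO), Jun (1951 and 2334 in WT, 2204 and 2643 in KO) and Batf3 (825 and 702 in WT, 855 and 742 in KO). Over all 129 sites the sums were 23827 and 24179 in WT and 28634 and 26420 in KO.

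The KO lines did not contribute alike. Taken alone against the WT mean, KO replicate 1 had a median log2 difference of 0.17 over the 129 sites and KO replicate 2 of 0.12, while the WT libraries differed by 0 at the median. At the Fosl1 sites KO replicate 1 was higher by 0.50 and KO replicate 2 by 0.02. The same was seen over all 2573 sites of chromosome 19 (0.47 and -0.03) and over the 95 sites that flank Fosl1 (0.51 and 0.04), so the Fosl1 difference cannot be told apart from one of the whole chromosome in that line. At Maff the values were 0.24 and 0.10, and over chromosome 15 they were 0.23 and 0.03. With the median of each chromosome removed in each library, the median over the AP-1 gene sites was 0.12.

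At Fos, KO replicate 1 was higher by 0.39 and KO replicate 2 by 0.05, beside 0.10 and 0.10 over all sites of chromosome 12. At Jun the order was turned (-0.10 for the first KO line, 0.35 for the other), and here WT replicate 1 minus WT replicate 2 was itself -0.41. In contrast, both KO lines were higher at the sites of Fosb (0.24 and 0.19, against -0.03 and 0.14 over chromosome 7) and of Jund (0.23 and 0.23, against 0.07 and 0.02 over chromosome 8). Junb, on the same chromosome as Jund, had 0.08 and -0.07. Fosl2 had -0.04 and 0.01, Atf3 0.01 and -0.19 and Batf3 0.15 and 0.12, the last 2 beside 0.00011 and 0.05 over chromosome 1. The part of these chromosome-wide levels in the values of single genes was not tested.

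**Figure D4:**
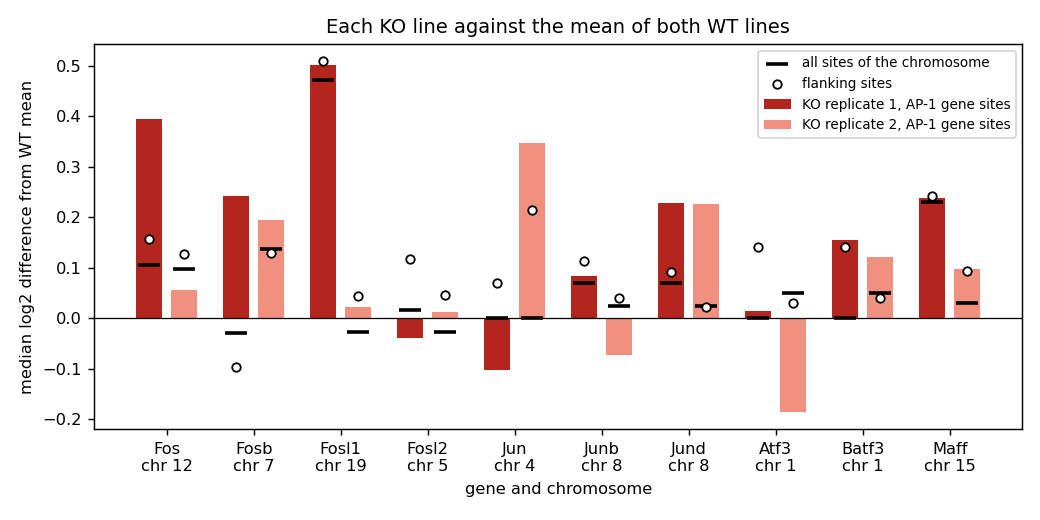
Median log2 difference of each KO library from the WT mean over the sites of each AP-1 gene (bars), over its flanking sites at 50 to 500 kb (circles) and over all sites of its chromosome (black lines). At Fosl1 the bar of KO replicate 1 (0.50) stands level with its flank (0.51) and near its chromosome (0.47), and Maff is alike (0.24, 0.24 and 0.23). Both bars lie above their chromosome lines at Fosb, Fosl1, Jund, Batf3 and Maff.

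The AP-1 gene sites were stronger than most, with a median of 127.5 normalized counts against 52 over all sites, longer (536 against 440 bases) and richer in GC (55.0% against 48.1%). However, 84 of the 129 were promoter sites, against 29130 of all 82325 sites. Among promoter sites the medians were 173 against 95.6 normalized counts, 558.5 against 545 bases and 57.8% against 55.2% GC. Among distal sites they were 87.25 against 41 normalized counts, 490 against 407 bases and 51.8% against 46.0% GC. The difference between KO and WT moved with signal across the whole table, so sites were compared within classes of signal. In the highest class of signal, above 255.5, the KO libraries were both higher at 20 of 37 AP-1 gene sites (54.1%), against 36.8% of all sites in that class, with medians of 0.23 and 0.13. From 119.75 up to that limit the shares were 23.3% of 30 sites and 18.8%, and from just above the median of 52 up to 119.5 they were 16.1% of 31 sites and 13.2%. From 28 up to the median they were 22.2% of 18 sites and 11.2%, and in the lowest class, up to 27.75, they were 7.69% of 13 sites and 7.86%. In each class the median of the AP-1 gene sites lay above that of all sites. In the lowest class, however, these medians were -0.13 and -0.17. There the log2 fold change was above 0 at 15.4% of the AP-1 gene sites, fewer than the 38.5% of all sites. The part of signal in the difference was not tested further.

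**Figure D5:**
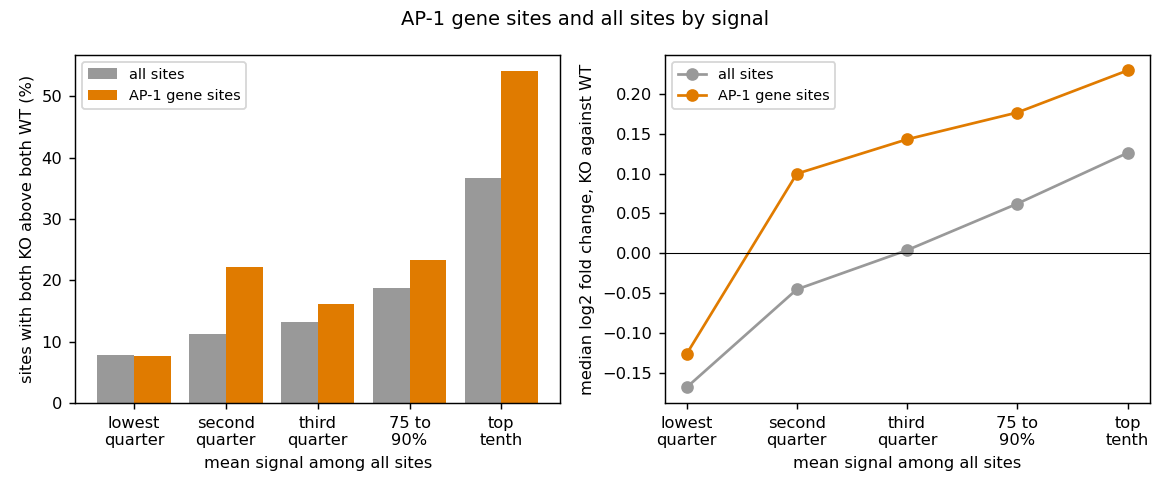
Share of sites with both KO libraries above both WT libraries (left, percent) and median log2 fold change, KO against WT (right), in classes of mean signal bounded at 27.75, 52, 119.5 and 255.5 normalized counts, for all sites (grey) and the AP-1 gene sites (orange). Both measures grew with signal for all sites, from 7.86% and -0.17 in the lowest class to 36.8% and 0.13 in the highest, where the AP-1 gene sites stood at 54.1% and 0.23.

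The elements shown above were counted in all sites, on both strands. Exact AP-1 sites (TGACTCA) were present in 41 of the 129 sites (31.8%) and in 36.0% of all sites, or 0.697 and 0.846 matches per kb. These shares are over unlike mixes of sites, since 84 of the 129 were promoter sites. In the whole table the element was less frequent in promoter sites (7032 of 29130) than in distal sites (22617 of 53195). Whether the AP-1 gene sites differ from all sites beyond that mix was not tested. The CRE was present in 4 (3.10%) against 1.30% of all sites (0.0516 and 0.0261 matches per kb). It lay in the start sites of Jund and Maff, at -28.8 kb from Fosb and at 45.4 kb from Jund. The CArG box was present in 9 (6.98%) against 2.88% (0.129 and 0.0570 per kb). Within 3 kb of the starts, 4 of 18 sites held a CArG box, 1 each at Fos and Fosb and a pair at Junb. The letters TGACATCA, chosen after the Jun sequence had been seen, were in 9 of the 129 sites (6.98%) and in 3.69% of the 80465 autosomal sites. A match is a description of the sequence only.

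The presence of an element was set beside the difference between KO and WT. The median log2 fold change was 0.16 at the 41 sites with it and 0.18 at the 88 without it, and 0.24 at the 9 sites with a CArG box. Across the whole table, the 29649 sites with an exact AP-1 element had a median of 0.04, against -0.0089 for the 52676 without it. KO replicate 1 alone gave 0.08 at the sites with it and KO replicate 2 gave 0.0072, and with equal library totals the median was -0.03 where that of all sites was -0.06. The value was 0.04 in promoter sites (0.0028 without the element) and 0.04 in distal sites (-0.02 without it). These medians were smaller than the difference between the KO libraries.

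The pathway around AP-1 was read from 4 gene lists, at the strongest site within 3 kb of each start. None of these sites was called at p under 0.01 with a 2-fold change. Of 12 other leucine zipper partners with a site (of 15 listed), 1 passed an unadjusted p under 0.05 and was higher in KO. This was Batf2, on chromosome 19, with 525 and 492 in WT and 692 and 657 in KO (0.41 ± 0.10, and 0.24 under quantile normalization). Of 16 other immediate-early genes, 1 passed, Ccn2, which encodes a matrix protein of fibroblasts, with 1008 and 889 in WT and 1321 and 1101 in KO (0.35 ± 0.11, and 0.08 under quantile normalization). Egr1, which serum response factor also drives, had 1232 and 1274 in WT and 1327 and 1212 in KO (0.02 ± 0.07), and the direction turned under quantile normalization (-0.34) and with equal library totals (-0.05).

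Of 14 genes of the signalling that leads to AP-1 (of 15 listed), 1 passed, Mrtfa, a cofactor of serum response factor, with 413 and 459 in WT and 508 and 567 in KO (0.30 ± 0.12, and 0.15 under quantile normalization). Srf itself had 466 and 464 in WT and 484 and 579 in KO (0.19 ± 0.13, and 0.03 under quantile normalization). Of 15 genes known as AP-1 targets (of 16 listed), 0 passed in either direction. The median log2 fold change was 0.10, 0.09, 0.10 and 0.07 over the 4 lists in this order, and 0.25 over the start sites of the 10 AP-1 genes. Over the strongest sites of all protein-coding starts it was 0.0272, and 0.105 over those with a mean above 255.5 normalized counts. Under quantile normalization the medians of the lists were -0.04, -0.05, -0.03 and -0.01, and that of the AP-1 start sites was 0.04. Those of all starts and of the stronger ones were then -0.06 and -0.03. Both KO libraries were above both WT libraries at 6 of 12, 4 of 16, 6 of 14 and 2 of 15 sites of the lists, beside 6 of the 10 AP-1 start sites. Both were below at 0, 2, 1 and 0 sites of the lists and at 1 AP-1 start site. Over all protein-coding starts both were above at 21.4% and below at 14.5% of the strongest sites. At those above 255.5 normalized counts the shares were 37.3% and 5.16%. Under quantile normalization both were above at 1, 0, 2 and 2 sites of the lists, and below at 0, 4, 1 and 3. At the AP-1 start sites these counts were 0 and 2. At the stronger starts they were 457 and 1041 of 5080.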

How the data were processed

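Nuclei of HAT1+/+ and HAT1-/- imMEFs were tagmented with Tn5, with 2 libraries per genotype. Per the study's methods and the submitters' processing notes, the authors used BWA 0.7.12 for paired-end alignment on mm10, MACS2 2.1.0 for peaks and DESeq2 for the comparison. How reads were filtered, how multi-mapping reads were treated and whether the Tn5 offset was corrected was not given in the sources used here, nor whether peaks were called on pooled libraries. The deposited values are a score: normalized counts per merged site, rounded to whole numbers, and so not suited to a count test. The deposited log2 fold changes (raw and shrunken), p-value and adjusted p-value of the authors' own comparison were not used. Sites were assigned to GENCODE vM21 genes. A promoter site lay within 3 kb of any annotated start. limma 3.58.1 (R 4.3.3) with an intensity trend was fitted to log2(value + 1) of all 82325 sites, with no filter on low values. Fold changes are on that scale, which understates low sites. Calls required p under 0.01 before adjustment together with a change of 1 or more on the log2 scale, two-sided. Nothing in the sources says how often a line was cultured, so p-values measure the spread between these libraries. The members and gene lists were chosen with earlier results of these data known. Named were every gene with its start site, the strongest site beyond 3 kb, called sites, and the 5 lowest and 5 highest fold changes among sites at or above the median signal, and other sites named were chosen after their values were seen. Alternatives were another pseudocount (8), a minimum mean of 20, equal library totals, quantile normalization, removal of chromosome medians, no trend, other windows and each library left out.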

Additional observations from a re-analysis of the deposited data

How the results depend on the processing

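The count of AP-1 gene sites called was 0 under 13 of 14 alternatives, and 6 at an unadjusted p under 0.05 with no fold filter. That count of 6 was 3 with equal library totals, 1 under quantile normalization (the Fosl1 site at 42.7 kb) and 4 with chromosome medians removed. In the last setting the Fosl1 sites at 42.7 and 40.3 kb no longer passed. Without the intensity trend it was 0 higher and 1 lower. Of all 82325 sites, 1266 passed higher in KO and 1313 lower in the main fit. These counts were 771 and 1700 with equal library totals and 873 and 1308 under quantile normalization. With chromosome medians removed they were 1536 and 1227, and without the trend 852 and 2234. The median log2 fold change of the AP-1 gene sites, 0.18, was 0.11 with equal library totals (where that of all sites shifted to -0.06), 0.0945 under quantile normalization and 0.12 with chromosome medians removed, and ran from 0.12 (without KO replicate 1) to 0.17 with a library left out. The median of sites with an AP-1 element reversed with equal library totals, to -0.0310 in all sites, -0.0316 in promoter sites and -0.0308 in distal sites. With a library left out it ran from -0.0183 (without WT replicate 1) to 0.0807 in all sites, from -0.0061 to 0.0843 in promoter sites and from -0.0375 to 0.0833 in distal sites.

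Among single sites, quantile normalization reversed the start sites of Jun (-0.12), Fosl2 (-0.0110) and Fosb (-0.0819), the sites of Fosb at -49.4 kb (-0.0228) and Atf3 at 34.2 kb (-0.0783), the site over the Junb start itself (-0.0488) and Egr1 (-0.34). Equal library totals reversed the start site of Fosb (-0.0124) and Egr1 (-0.0509). With a library left out, the start site of Fosb ran from -0.15 to 0.26, Fos at 11.8 kb from -0.11 to 0.55, Fosb at -49.4 kb from -0.0370 to 0.36, Jun at -46.0 kb from -0.0759 to 0.71, Jund at -25.0 kb from -0.0595 to 0.44 Atf3 at 34.2 kb from -0.0226 to 0.30, Fos at -1.34 kb from -0.20 to 0.61, the site over the Junb start itself from -0.0187 to 0.20 and Egr1 from -0.0478 to 0.0829. No other alternative turned the direction at a start site, at another AP-1 gene site described or at Batf2, Ccn2, Mrtfa or Srf. None of these sites was called under any alternative but the unadjusted p under 0.05 with no fold filter. Under that one the 6 AP-1 gene sites passed, as did Batf2, Ccn2 and Mrtfa. The summed log2 difference moved beyond the replicate spread at 4 of 70 values. These were Fosb (0.14 with equal library totals, 0.30 within 10 kb), Junb (0.09 with equal library totals) and Batf3 (-0.24 within 10 kb). At Batf3 the direction turned, since the main value was 0.07. The summed difference of Fosl1 fell from 0.28 to 0.0691 without KO replicate 1. The cause was not tested. No paired analysis was possible because replicate numbers follow accession order, and the line names share a number in only 1 pair (WT replicate 1 and KO replicate 2), which the labels do not explain. Counting error was largest in KO replicate 2, which had the fewest estimated reads.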
